A study of Mus musculus with 20 samples.

Results

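The cytosolic ribosomal protein genes were examined in 4 populations of cells sorted from the mouse mammary gland. They were taken by symbol, as rows named Rpl or Rps with a number and an optional ending, plus Rplp0, Rplp1, Rplp2 and Rpsa. Rows ending in -ps, which name pseudogenes, and the Rps6k kinases were left out. The rule found 85 of the 46603 genes in the count table, 52 with large-subunit and 33 with small-subunit symbols, and 79 of them passed the filter on low counts that left 17236 genes to test. The remaining 6 were Rpl3l, Rpl10l, Rpl29, Rps12, Rps12l1 and Rps13, of which Rps12l1 had no count in any library.

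Cells, depleted of lineage-positive cells before sorting, came from the fourth inguinal glands of virgin FVB/N females aged 6 to 8 weeks, with no transgene or treatment named in the labels. Each library was made from 1000 cells with SMART-Seq V4, a kit that amplifies cDNA from polyadenylated RNA. Mammary repopulating units (MRU) are the CD24-medium, CD49f-high gate, which is enriched for basal cells. The populations were MRU with both CD200 and CD200R1 on their surface (CD200+CD200R1+ MRU), all other MRU (remaining MRU), CD200-positive CD200R1-negative cells outside the gate (CD200+ non-MRU), and CD200-negative CD200R1-positive cells outside it (CD200R1+ non-MRU). Each was sorted from the same 5 mice, numbered 2 to 6, so the design had 20 libraries. For mouse 4, the labels say that the CD200R1+ non-MRU library took about 10% of its cells from mouse 3.

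Libraries held 10853587 to 13862963 counts, and 3 counts in a library equalled 0.209 to 0.327 CPM (counts set against an equal library size and corrected by TMM, a factor that evens out differences in RNA makeup between libraries). All 4 populations are labelled as epithelial. The basal keratin gene Krt14 averaged 1881 ± 498 CPM in CD200+CD200R1+ MRU, 1374 ± 376 in the remaining MRU, 59.8 ± 36.0 among CD200+ non-MRU and 0.744 ± 0.594 among CD200R1+ non-MRU (SD, n = 5 each). The luminal keratin gene Krt8 averaged 462 ± 120.0, 436 ± 111, 1546 ± 292 and 5.93 ± 7.92 CPM in the same order of populations. The collagen gene Col1a1 averaged 81.7 ± 30.03, 58.6 ± 28.5, 736 ± 206 and 8047 ± 1550 CPM in that order, so the CD200R1+ non-MRU carried little keratin RNA and much collagen RNA against their label.

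A cytosolic ribosome has a small subunit, which reads the mRNA, and a large subunit, which joins amino acids. Each subunit is built from ribosomal RNA and a fixed set of proteins, the Rps proteins in the small and the Rpl proteins in the large one, mostly needed in equal numbers. Their mRNAs are abundant in growing cells, and most begin with a 5′ terminal oligopyrimidine tract, a run of C and T bases through which mTOR signalling sets their translation. A few members have a paralogue that can take their place, such as Rpl39l for Rpl39, Rpl22l1 for Rpl22 and Rps27l for Rps27.

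Promoter windows from RefSeq (GRCm38.p6, 250 bases before to 50 after the start) matched 63 members with 75 starts. The stretches below, from 100 bases before to 30 after the start, are shown for 4 members that were higher in CD200+CD200R1+ MRU than in the remaining MRU, and for Rpl39l, which did not pass in that comparison and is described further on. Capitals mark the longest pyrimidine run of at least 5 bases that begins with C within 5 bases of the start.
Rps26: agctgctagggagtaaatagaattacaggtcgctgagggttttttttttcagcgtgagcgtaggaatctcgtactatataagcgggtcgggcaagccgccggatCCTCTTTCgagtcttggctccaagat
Rps21: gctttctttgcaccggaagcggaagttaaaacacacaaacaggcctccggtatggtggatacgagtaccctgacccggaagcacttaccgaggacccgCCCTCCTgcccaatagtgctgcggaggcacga
Rps10: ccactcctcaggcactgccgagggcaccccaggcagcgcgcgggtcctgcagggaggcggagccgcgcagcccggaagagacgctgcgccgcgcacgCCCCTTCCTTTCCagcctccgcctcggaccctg
Rpl39: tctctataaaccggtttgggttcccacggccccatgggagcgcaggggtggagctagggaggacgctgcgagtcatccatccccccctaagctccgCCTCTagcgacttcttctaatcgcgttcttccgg
Rpl39l: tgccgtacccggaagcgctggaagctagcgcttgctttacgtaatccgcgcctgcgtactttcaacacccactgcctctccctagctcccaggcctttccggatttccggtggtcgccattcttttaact

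These stretches lie at chr10:128626477-128626606 (minus strand) for Rps26, chr2:180257279-180257408 (plus strand, the first of its listed starts) for Rps21, chr17:27635215-27635344 (minus) for Rps10, chrX:37085193-37085322 (minus) for Rpl39 and chr16:10170128-10170257 (plus) for Rpl39l. Such a run was in 41.3% of the 75 member promoters and in 18.3% of all 32851 promoters of the table. It was 13 bases long in Rps10, 8 in Rps26, 7 in Rps21 and 5 in Rpl39, and the Rpl39l window had none. The ETS core CCGGAAG, searched on both strands, was in 34.7% of member promoters and 8.86% of all promoters. It was in the full search windows of all 5 members shown, but the shorter stretch printed for Rps26 does not hold it. The YY1 core AAGATGG was in 16.0% of member promoters and 6.34% of all promoters, the NRF1 core GCGCATG in 12.0% and 3.91%, and the TATA box TATAAA in 9.33% and 13.6%. Among promoters of the other genes tested here, the pyrimidine run was in 19.6%, the ETS core in 15.0%, the YY1 core in 6.55%, the NRF1 core in 6.08% and the TATA box in 7.72%, so the TATA box was rarer in members than in all promoters but not than in those of other tested genes. These are matches of letters near annotated starts and carry no test.

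Ribosomal protein genes together took the largest share of counts in CD200+CD200R1+ MRU and the smallest in the CD200R1+ non-MRU. The share was 1.38%, 1.33%, 1.47%, 1.59% and 1.68% in CD200+CD200R1+ MRU, against 1.15%, 1.09%, 1.20%, 1.23% and 1.27% in the remaining MRU, for mice 2 to 6. In the same mice it was 1.24%, 1.32%, 1.22%, 1.21% and 1.45% in CD200+ non-MRU, and 0.858%, 0.800%, 0.842%, 0.762% and 0.905% in the CD200R1+ non-MRU. Every CD200+CD200R1+ MRU library lay above every remaining MRU library, every CD200R1+ non-MRU library lay below all others, and the remaining MRU and CD200+ non-MRU overlapped. In bulk libraries, a change in the makeup of cells and a change in RNA per cell cannot be told apart.

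**Figure D1:**
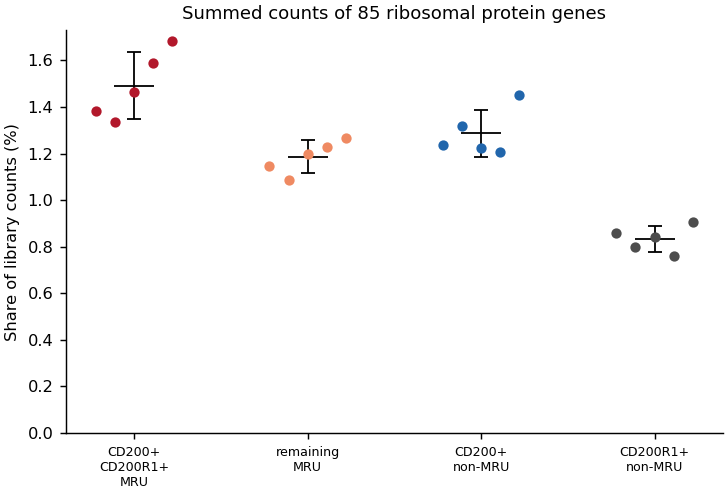
Share of library counts (%) taken by the 85 ribosomal protein genes, by population. Points are libraries of mice 2 to 6 from left to right, and bars are the mean ± SD of 5 libraries; CD200+CD200R1+ MRU libraries sit between 1.33% and 1.68% and CD200R1+ non-MRU libraries between 0.762% and 0.905%.

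The low share of CD200R1+ non-MRU depended on the scale. TMM factors were 0.766 to 0.854 in those libraries and 1.04 to 1.14 in the other 3 populations. On TMM-scaled CPM, the members summed to 13785 ± 1357 in CD200+CD200R1+ MRU, 11260 ± 576 in the remaining MRU, 11913 ± 1102 among CD200+ non-MRU and 10327 ± 566 among CD200R1+ non-MRU (SD, n = 5 each). The ratio of CD200+CD200R1+ MRU to CD200R1+ non-MRU was 1.79 on the share of counts and 1.33 on this scale, which was added after the values had been seen. Over all genes in that comparison, log2 fold changes had a median of 0.01 with TMM and 0.43 on library size alone. All fold changes below are relative to the TMM scaling.

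Small- and large-subunit genes did not keep a fixed ratio. Summed small-subunit counts over summed large-subunit counts stood at 0.871, 0.886, 0.903, 0.896 and 0.900 in CD200+CD200R1+ MRU, and 0.854, 0.864, 0.822, 0.853 and 0.855 in the remaining MRU. The ratio was 0.798, 0.813, 0.788, 0.792 and 0.800 in CD200+ non-MRU, and 0.877, 0.840, 0.840, 0.802 and 0.826 among CD200R1+ non-MRU. The CD200+CD200R1+ MRU and remaining MRU libraries did not overlap, and the CD200+ non-MRU stood below both MRU populations.

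Levels differed far more between members than between populations. Per kilobase of merged exon (GENCODE M21, GRCm38), the mean level over 20 libraries ran from 0.0126 CPM per kb for Rpl10l to 748 CPM per kb for Rpl32, with a median of 16.4 over the 84 members with counts. Among other high members, Rpl4 stood at 709 and Rpl8 at 460 CPM per kb. The 5 members with the most counts, by CPM and not per length, took 40.2% to 43.1% of the members' counts in every library. Among the lowest, Rpl29 had 21 counts, Rps12 had 10 and Rpl10l had 3 over all 20 libraries, and Rpl3l, a paralogue of Rpl3 known from striated muscle, had 35.

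Many members share sequence with processed pseudogenes, and the sources used here do not say how reads that match several genes were counted. The coding sequence of each member was therefore searched in 50-base windows against the transcripts of all other GENCODE M21 genes, on both strands. Of the 85 members, 83 were annotated as protein coding, and for the others, Rps4l among them, the whole transcript was used. The measure by coding windows was settled on after windows of whole transcripts had been seen. A median of 8.70% of a member's coding windows occurred in no other gene, and 31 members had no such window. For the 82 rows with mitochondrial ribosomal protein symbols, which unlike the members include some -ps pseudogene rows, the median was 100%. Over whole principal transcripts the medians were 42.6% and 95.3%.

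Members with more unique coding windows stood at higher levels per kb. The 16 members with over 50% unique windows and any count had a median of 243 CPM per kb, against 7.33 CPM per kb for the 45 members with counts and under 10%. Across the 84 members, Spearman's rho of level per kb and unique share was 0.556 and Pearson's r of the log2 level was 0.315, given as a description of genes that share libraries. Rpl10l and Rpl3l, with 87.5% and 100% unique windows, were exceptions with levels under 0.1 CPM per kb. The part of shared reads in these levels was not tested. Exons of 40 members overlap another gene, 28 of them on the same strand, and the kit does not mark strand.

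**Figure D2:**
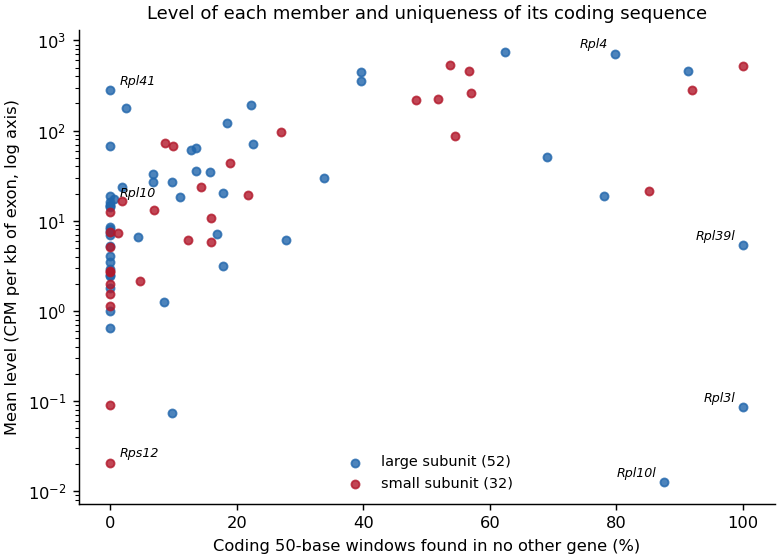
Mean level of each of 84 members (CPM per kb of exon, log axis) against the share of its coding 50-base windows found in no other gene (%). Members with over 50% unique windows have a median of 243 CPM per kb and those under 10% a median of 7.33, with Rpl3l and Rpl10l at the lower right.

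Within MRU, ribosomal protein genes were higher in the CD200+CD200R1+ cells. With edgeR's quasi-likelihood test and Benjamini-Hochberg adjustment over 17236 genes (threshold 0.05), 22 of the 79 members tested were higher in CD200+CD200R1+ MRU than in the remaining MRU and 0 were lower. Of all genes tested, 1.62% were called higher and 6.64% lower, and of the genes averaging at least 10 CPM, 2.51% were higher. The median log2 fold change of the members was 0.27, beside 0.02 for all genes tested, and 65 of 79 were above 0. Folds of the 22 ran from 1.25 to 1.49. At an unadjusted p under 0.05, 35 members passed, and DESeq2 called 30 higher and 0 lower.

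The calls fell on both subunits. Of 30 small-subunit members tested 13 were higher, with a median log2 fold change of 0.35, and of 49 large-subunit members 9 were higher, with a median of 0.25. All 22 averaged at least 10 CPM, and 0 of the 19 members under that level passed. For 20 members every CD200+CD200R1+ MRU library exceeded every remaining MRU library, which held for 3.8% of all genes tested.

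Small-subunit members led this comparison. Rpsa, which is also known as a laminin receptor, stood at 22.9, 21.5, 29.96, 35.1 and 33.2 CPM in CD200+CD200R1+ MRU, against 17.9, 18.1, 19.7, 18.3 and 21.6 CPM in the remaining MRU. The populations overlapped only where the lowest CD200+CD200R1+ MRU library met the highest remaining MRU library. The log2 fold change was 0.58 ± 0.15 (SE), with an adjusted p of 0.0143.

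Rps26, a small-subunit protein at the channel through which mRNA leaves, had 161, 147, 189.8, 213 and 213 CPM in CD200+CD200R1+ MRU and 120.2, 117, 131, 148 and 137 CPM in the remaining MRU. Its libraries overlapped by a single pair of values, 147 against 148 CPM. Rps21 had 75.8, 76.3, 85.5, 102 and 111 CPM in CD200+CD200R1+ MRU and 60.9, 60.4, 55.6, 74.999 and 68.7 CPM in the remaining MRU, with no overlap. Rps10, which lies where mRNA enters, had 37.95, 38.7, 37.2, 38.7 and 46.5 CPM in CD200+CD200R1+ MRU and 28.9, 26.0, 30.6, 26.3 and 30.9 CPM in the remaining MRU. The log2 fold changes of Rps26, Rps21 and Rps10 were 0.50, 0.49 and 0.48.

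Large-subunit members also rose. Rpl39, a small protein in the tunnel through which the new chain leaves, had 51.4, 51.2, 61.7, 70.6 and 66.9 CPM in CD200+CD200R1+ MRU and 36.5, 41.0, 39.8, 52.5 and 45.1 CPM in the remaining MRU, a log2 fold change of 0.49. Rpl22, an RNA-binding protein of the large subunit, had 169, 158, 182, 214 and 213 CPM in CD200+CD200R1+ MRU and 137, 120.2, 141, 148 and 144 CPM in the remaining MRU. Its log2 fold change was 0.44 ± 0.11 (SE), with an adjusted p of 0.0121. Rplp1, an acidic protein of the stalk that recruits elongation factors, had 208, 216, 255, 275 and 309 CPM in CD200+CD200R1+ MRU and 169.5, 183, 179, 196 and 206 CPM in the remaining MRU, a log2 fold change of 0.44. The call of Rplp1 was lost when mouse 5 or 6 was left out of CD200+CD200R1+ MRU or mouse 2 out of remaining MRU. Rplp0, the base of the same stalk, spanned 527 to 696 CPM in CD200+CD200R1+ MRU and 515 to 572 CPM in the remaining MRU, and did not pass.

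**Figure D3:**
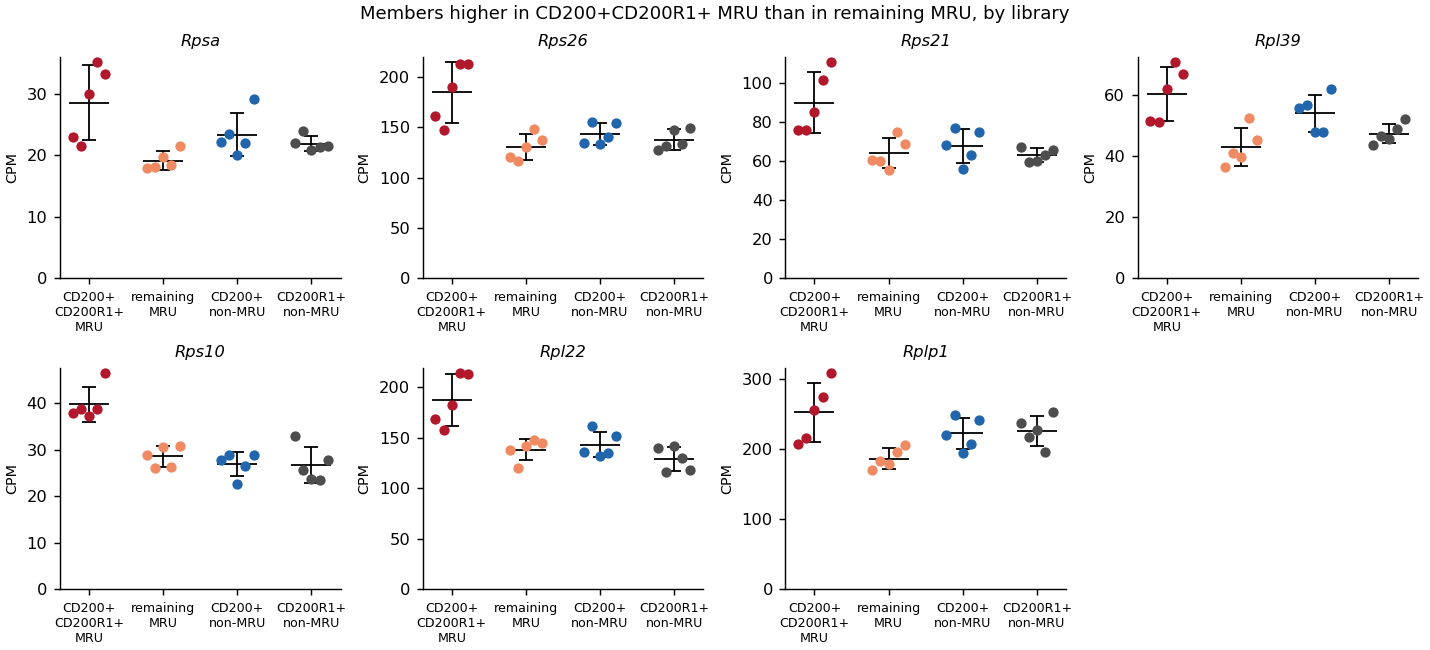
Levels (TMM-scaled CPM) of 7 members called higher in CD200+CD200R1+ MRU than in the remaining MRU, in all 4 populations. Points are libraries of mice 2 to 6 from left to right, and bars are the mean ± SD of 5 libraries; Rps10, for example, spans 37.2 to 46.5 CPM in CD200+CD200R1+ MRU and 26.0 to 30.9 CPM in the remaining MRU.

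Markers of other cell types also differed between the MRU populations. All 12 endothelial genes listed had counts in both, and they summed to 71.6 to 274 CPM in CD200+CD200R1+ MRU and 2119 to 3055 CPM in the remaining MRU. The 10 pericyte and smooth muscle genes summed to 76.6 to 188 CPM and 636 to 858 CPM, and the 9 adipocyte genes to 162 to 376 CPM and 4069 to 5819 CPM, in the same order. The 12 macrophage and myeloid genes ran the other way, with 3557 to 7037 CPM in CD200+CD200R1+ MRU and 1985 to 3298 CPM in the remaining MRU. The 12 basal epithelial genes summed to 15298 to 27807 CPM in CD200+CD200R1+ MRU and 12739 to 21165 CPM in the remaining MRU. Of these, 2 were called higher and 0 lower, with a median log2 fold change of 0.46. The 14 dissociation stress genes summed to 15928 to 22020 CPM in CD200+CD200R1+ MRU and 21453 to 23760 CPM in the remaining MRU. Among them 0 were called higher and 4 lower, with a median log2 fold change of -0.36. Of all genes tested, 1.62% were higher and 6.64% lower. None of the genes on the 4 lists of other cell types was at 0 in either population. The part of these cells, of basal cells and of handling stress in the ribosomal protein result was not tested. Leaving out 1 library mattered for the count of 22, which was 11 when mouse 5 and 13 when mouse 6 was left out of CD200+CD200R1+ MRU, and 13 and 14 without remaining MRU of mice 3 and 2. Without the filter on low counts only 2 members passed, Rps26 among them.

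CD200+CD200R1+ MRU also exceeded both non-MRU populations for many members, beside a much larger background of change. Against CD200+ non-MRU, 27 members were higher and 5 lower, where 23.9% of all genes tested were higher and 24.6% lower. The median log2 fold change was 0.22 for the members and -0.03 for all genes tested. Against CD200R1+ non-MRU, 40 members were higher and 2 lower, beside 22.8% and 24% of all genes tested, with medians of 0.38 for the members and 0.01 for all genes tested. The comparisons share the CD200+CD200R1+ MRU libraries and are given side by side. On library size alone, the second comparison gave 63 higher and 1 lower. The 5 lower against CD200+ non-MRU became 3 when any of 12 libraries was left out, and the 2 lower against CD200R1+ non-MRU became 1 when mouse 2, 3 or 5 was left out of CD200+CD200R1+ MRU or mouse 6 out of CD200R1+ non-MRU.

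Rps19, whose loss of function underlies Diamond-Blackfan anaemia in humans, was the named small-subunit member with the largest rise against CD200R1+ non-MRU. It had 272, 232, 237, 288 and 318 CPM in CD200+CD200R1+ MRU and 154, 155, 129, 139 and 146 CPM among CD200R1+ non-MRU. The groups were far apart, and the log2 fold change was 0.90 ± 0.11 (SE), with an adjusted p of 1.07e-06. Rpl13a averaged 460.2 ± 33.6 and 284 ± 16.5 CPM in these populations, Rpl37a 222 ± 24.7 and 138 ± 7.26 CPM, and Rps15 372 ± 49.7 and 234 ± 33.8 CPM (SD, n = 5 each). None of these 3 overlapped between the populations. Such a separation, higher in CD200+CD200R1+ MRU, held for 29 of the 79 members and for 2632 of all 17236 genes tested.

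Few members were called between remaining MRU and the non-MRU populations. Against CD200+ non-MRU, 4 members were higher and 6 lower, beside 24.1% and 20.1% of all genes tested, and the median log2 fold change was -0.05. Against CD200R1+ non-MRU, 12 were higher and 3 lower, beside 22.4% and 21.6%, with a median of 0.07. With the mouse as a block the lower count became 6, and library size alone gave 47 higher and 1 lower. Without CD200R1+ non-MRU of mouse 2 or of mouse 4, 7 members were higher. CD200+ non-MRU against CD200R1+ non-MRU gave 15 higher and 9 lower, beside 23.8% and 28.6%, with a median of 0.16, and 59 higher and 3 lower on library size alone.

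**Figure D4:**
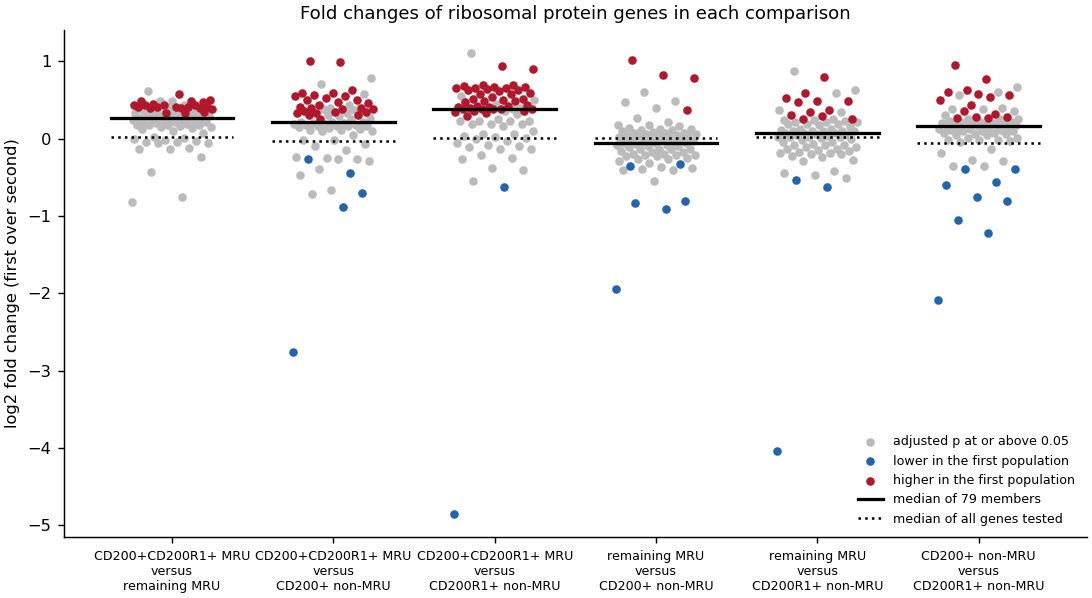
Log2 fold change (first population over second) of the 79 tested members in each of the 6 comparisons; red points were higher and blue points lower at an adjusted p below 0.05. Solid lines are the median of the members and dotted lines that of all genes tested, 0.27 and 0.02 between the MRU populations; the lowest point in all 6 comparisons is Rpl39l.

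A few members followed orders of their own, and those described next were picked after their values had been seen, as the called members with the largest departures. Rpl39l, the paralogue of Rpl39 known from mouse male germ cells, stood at 0.524, 0.563, 0.453, 0.230 and 0.510 CPM in CD200+CD200R1+ MRU, close to the level of 3 counts in a library. It had 1.27, 0.400, 0.578, 0.814 and 1.002 CPM in the remaining MRU and 2.92, 3.70, 2.71, 3.82 and 2.61 CPM among CD200+ non-MRU. In CD200R1+ non-MRU it reached 7.31, 17.9, 13.5, 8.87 and 19.8 CPM. The non-MRU populations did not overlap with each other or with MRU.

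The log2 fold change of Rpl39l was -4.85 ± 0.38 (SE) in CD200+CD200R1+ MRU over CD200R1+ non-MRU, with an adjusted p of 6.52e-10. It was -4.03 in the remaining MRU and -2.09 in CD200+ non-MRU over CD200R1+ non-MRU. All of its coding windows are unique among GENCODE M21 transcripts, so no other annotated gene holds these 50-base stretches. The fibroblast and matrix list of 11 genes, which summed to 4208 to 5313 CPM in CD200+CD200R1+ MRU, 4342 to 5643 in the remaining MRU and 8951 to 20954 in CD200+ non-MRU, reached 83834 to 117099 CPM in the CD200R1+ non-MRU. Its part in the level of Rpl39l was not tested.

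Within each library, the ratio of a paralogue to its parent needs no scaling between libraries. It was taken from counts with 0.5 added to each. Ratios of 6 pairs, taken up after the data had been seen, were compared in the 6 comparisons with two-sided exact permutation tests, whose smallest p for 5 against 5 libraries is 0.00794. The permutations shuffled libraries without regard to their mouse, although both populations of each comparison came from the same mice. A permutation that keeps the pairs was not run. P-values were adjusted over the 36 tests. Rpl39l over Rpl39 had a median of 0.00817 in CD200+CD200R1+ MRU, 0.0162 in the remaining MRU, 0.0575 among CD200+ non-MRU and 0.297 among CD200R1+ non-MRU. All 6 differences passed (adjusted p 0.0159 for 5 of them and 0.0429 between the MRU populations, lower in CD200+CD200R1+ MRU in 4 of 5 mice).

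Rpl22 rose in CD200+CD200R1+ MRU without Rpl22l1. Rpl22l1 had 58.2, 55.4, 66.9, 69.4 and 71.9 CPM in CD200+CD200R1+ MRU and 66.6, 60.8, 70.4, 64.7 and 71.4 CPM in the remaining MRU, a log2 fold change of -0.05 that did not pass (95% interval of the fold 0.838 to 1.11). The ratio of Rpl22l1 to Rpl22 ran from 0.324 to 0.367 in CD200+CD200R1+ MRU, 0.439 to 0.506 in the remaining MRU, 0.490 to 0.590 in CD200+ non-MRU and 0.413 to 0.678 in the CD200R1+ non-MRU. The CD200+CD200R1+ MRU libraries lay below all others, with a difference of -0.49 on the log2 scale from remaining MRU (exact permutation test, adjusted p = 0.0159, lower in 5 of 5 mice). Unique coding windows made up 15.8% of Rpl22l1 and 69.0% of Rpl22.

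Rps27l, a paralogue of Rps27 known as a target of p53, exceeded Rps27 in every library, by a median of 19.7 times in CD200+CD200R1+ MRU, 10.7 in the remaining MRU, 9.67 among CD200+ non-MRU and 19.8 among CD200R1+ non-MRU. Between the MRU populations this ratio did not pass (exact permutation test, adjusted p = 0.052, higher in CD200+CD200R1+ MRU in 5 of 5 mice). These are ratios of counts, not per length, and no coding window of Rps27 is unique. Rps27l itself rose to 221 ± 44.4 CPM in CD200+CD200R1+ MRU, against 147 ± 23.5 in CD200+ non-MRU (SD, n = 5 each), a log2 fold change of 0.59 with an adjusted p of 0.00164. In CD200+ non-MRU over CD200R1+ non-MRU it was lower by TMM, with a log2 fold change of -0.40, but 0.02 on library size alone. That call was also lost without the filter on low counts, in the fit of 10 libraries, and without CD200+ non-MRU of mouse 5 or CD200R1+ non-MRU of mouse 6.

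Rps4l, which GENCODE M21 lists as a transcribed processed pseudogene, did not follow its parent Rps4x, which rose in CD200+CD200R1+ MRU over remaining MRU with a log2 fold change of 0.40, beside -0.43 (adjusted p 0.297) for Rps4l. Rps4l had 12.2, 14.1, 26.2, 16.0 and 20.8 CPM in CD200+CD200R1+ MRU, 21.3, 21.1, 25.8, 21.6 and 30.3 in the remaining MRU, 13.1, 10.4, 15.9, 8.24 and 11.6 among CD200+ non-MRU, and 20.7, 26.7, 31.1, 21.9 and 37.8 among CD200R1+ non-MRU. The CD200+ non-MRU libraries lay below all of those of remaining MRU and of CD200R1+ non-MRU. Over Rps4x, its median ratio was 0.114 in CD200+CD200R1+ MRU, 0.225 in the remaining MRU, 0.0995 among CD200+ non-MRU and 0.318 among CD200R1+ non-MRU. The difference between the MRU populations was -0.86 on the log2 scale (exact permutation test, adjusted p = 0.0159, lower in CD200+CD200R1+ MRU in 5 of 5 mice).

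The pairs Rpl7l1 with Rpl7 and Rpl36al with Rpl36a passed in 2 comparisons each. Rpl7l1 over Rpl7 had a median of 0.270 in CD200+CD200R1+ MRU, 0.288 in the remaining MRU, 0.527 among CD200+ non-MRU and 0.281 among CD200R1+ non-MRU, and passed for both MRU populations against CD200+ non-MRU. Rpl36al over Rpl36a had medians of 19.8, 19.4, 29.1 and 25.9 in the same order, and passed for both MRU populations against CD200R1+ non-MRU. Neither Rpl36al nor Rpl36a has a unique coding window.

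Rpl10, which joins the large subunit late in its maturation, was highest in CD200+ non-MRU. It had 25.2, 24.1, 23.8, 27.4 and 33.7 CPM in CD200+CD200R1+ MRU, 23.1, 29.6, 24.4, 26.8 and 28.2 in the remaining MRU, 51.8, 46.7, 47.1, 44.5 and 56.8 among CD200+ non-MRU, and 29.7, 30.6, 28.4, 31.6 and 23.9 among CD200R1+ non-MRU. The CD200+ non-MRU libraries lay above all others, and the other populations overlapped. The log2 fold change was -0.88 ± 0.13 (SE) in CD200+CD200R1+ MRU over CD200+ non-MRU (adjusted p 8.12e-06) and 0.78 ± 0.13 in CD200+ non-MRU over CD200R1+ non-MRU (adjusted p 2.69e-05), the second being 1.20 on library size alone. Rpl30 had the same direction, at 18.5 ± 2.76 CPM in CD200+CD200R1+ MRU against 30.1 ± 5.81 CPM in CD200+ non-MRU, a log2 fold change of -0.71.

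Rpl10a and Rpl15 had their lowest means in CD200+ non-MRU. Rpl10a, a protein of the stalk where spent tRNA leaves, had 64.3, 46.4, 41.5, 43.3 and 65.9 CPM in CD200+CD200R1+ MRU and 24.6, 26.2, 26.6, 25.8 and 27.1 CPM in CD200+ non-MRU. The groups did not overlap, which held in this direction for 14 of the 79 members and 3217 of all 17236 genes tested. The log2 fold change of Rpl10a was 1.01 ± 0.15 (SE), with an adjusted p of 1.08e-05. Rpl15 averaged 49.2 ± 10.1 CPM in CD200+CD200R1+ MRU and 24.8 ± 2.31 CPM in CD200+ non-MRU, a log2 fold change of 0.99. Rpl10 and Rpl15 have no unique coding window and Rpl10a has 0.501%. When counts of rows named as -ps pseudogenes were added to their parents, the difference of Rpl10a from CD200+ non-MRU shrank to 0.65 in CD200+CD200R1+ MRU and to 0.25, against 0.79, in remaining MRU. In CD200+ non-MRU over CD200R1+ non-MRU, Rpl10a then had a log2 fold change of -0.09 (adjusted p 0.459), against -0.81 without those rows.

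**Figure D5:**
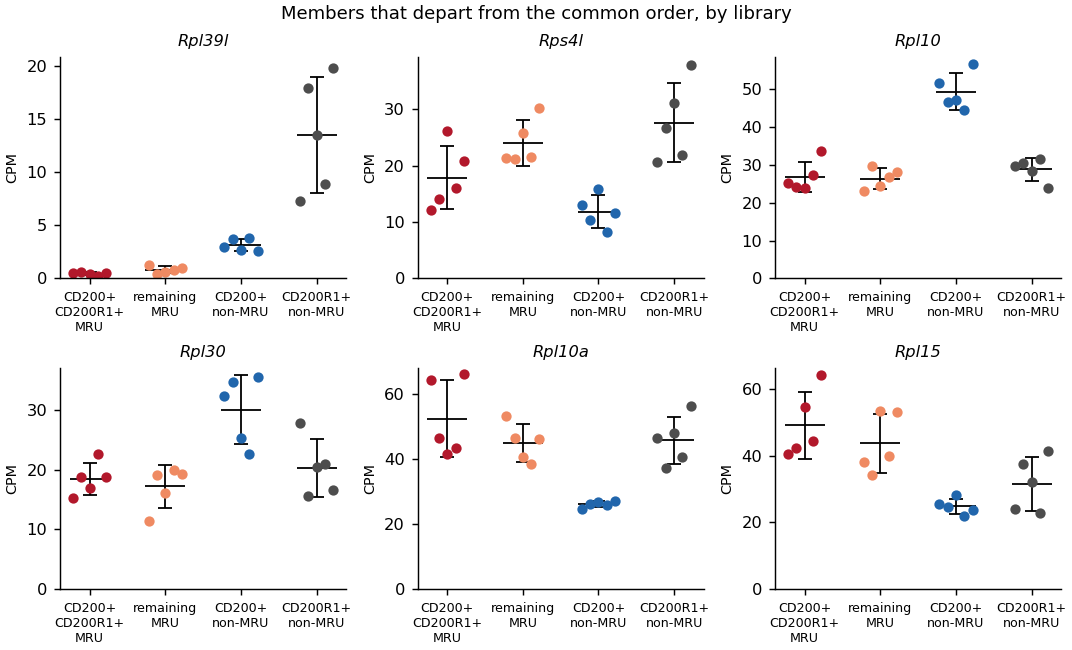
Levels (TMM-scaled CPM) of 6 members whose order of populations differed from that of the summed share. Points are libraries of mice 2 to 6 from left to right, and bars are the mean ± SD of 5 libraries; Rpl39l reaches 19.8 CPM in the CD200R1+ non-MRU, Rpl10 is highest and Rpl10a lowest in CD200+ non-MRU.

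Rpl3, which reaches the catalytic centre of the large subunit, was low in the CD200R1+ non-MRU. It had 25.3, 21.2, 25.7, 27.4 and 28.7 CPM in CD200+ non-MRU and 12.7, 17.4, 10.9, 9.98 and 15.2 CPM among CD200R1+ non-MRU. The log2 fold change was 0.96 ± 0.20 (SE), with an adjusted p of 0.000363 and no overlap, and 0.61 with -ps pseudogene rows added. No overlap, with CD200+ non-MRU higher, held for 12 of the 79 members and 2654 of all 17236 genes tested. Rpl11, which can bind the p53 regulator MDM2, ran the other way, at 7.44 ± 1.66 CPM in CD200+ non-MRU against 12.5 ± 1.52 CPM in the CD200R1+ non-MRU, a log2 fold change of -0.75. On library size alone that change of Rpl11 was -0.32 and did not pass (adjusted p 0.163).

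Components of the ribosome outside the symbol rule were read alongside. Gnb2l1, which encodes the small-subunit scaffold Rack1, averaged 1008 ± 103 CPM in CD200+CD200R1+ MRU, 735 ± 76.1 in the remaining MRU, 697 ± 82.8 among CD200+ non-MRU and 759 ± 81.8 among CD200R1+ non-MRU (SD, n = 5 each). It was the single gene of this list of 4 called higher between the MRU populations, with a log2 fold change of 0.46 and an adjusted p of 0.0151. Fau and Rps3a1 were among those that did not pass there. Against CD200R1+ non-MRU all 4 were higher in CD200+CD200R1+ MRU, beside 22.8% of all genes tested. Against CD200+ non-MRU 3 were, beside 23.9%, and between the MRU populations 1 was, beside 1.62%.

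Genes of the other translation lists were read between the MRU populations, where 1.62% of all genes tested were higher and 6.64% lower. The elongation factor list, which also holds the kinase gene Eef2k and Tpt1, had 9 genes tested. Of these 1 was higher in CD200+CD200R1+ MRU, Eef1b2, with a log2 fold change of 0.37, and the median of the 9 was 0.27. Of 30 genes on the initiation factor list, which also holds the inhibitors Eif4ebp1 and Eif4ebp2, Pabpc1 was higher (0.39) and Eif4a2 lower (-0.36). Of 54 genes of ribosome biogenesis and rRNA synthesis, Nat10 was higher (0.78) and Sbds, which helps release a block on new large subunits, lower (-0.59). Of 18 regulators of ribosomal protein mRNA, Max was higher (0.57) and Gabpb1, a subunit of an ETS-family factor, lower (-0.80). Of 81 rows tested with mitochondrial ribosomal protein symbols, some of them -ps pseudogenes, 0 were higher and 0 lower. Their median log2 fold change was 0.14.

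Mitochondrial ribosomal protein genes were also read in the comparisons with CD200+ non-MRU. In CD200+CD200R1+ MRU over CD200+ non-MRU, 4 of the same 81 rows, -ps pseudogenes included, were higher and 12 lower. Of all genes tested, 23.9% were higher and 24.6% lower. The median log2 fold change was -0.08, beside 0.22 for the cytosolic members. Mrpl10 was among the 12 lower genes, with a log2 fold change of -1.06. In remaining MRU over CD200+ non-MRU, 1 was higher and 17 lower, beside 24.1% and 20.1% of all genes tested. The median there was -0.19, beside -0.05 for the cytosolic members. The difference between the sets was not tested.

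Of the 18 regulators, 6 were higher and 6 lower in CD200+CD200R1+ MRU than in CD200+ non-MRU, beside 23.9% and 24.6% of all genes tested. Against CD200R1+ non-MRU, 2 of them were higher and 5 lower, beside 22.8% and 24%. Genes of the Myc family were among those called. Myc, a driver of ribosome production, was lower in CD200+CD200R1+ MRU than in CD200+ non-MRU and CD200R1+ non-MRU, with log2 fold changes of -1.08 and -1.42. Mycn was higher in CD200+CD200R1+ MRU than in the same populations, by 2.55 and 1.10, and Mycl was higher than in the CD200R1+ non-MRU by 3.07 on that scale. Eif4ebp1, an inhibitor of cap-dependent initiation, was lower in CD200+CD200R1+ MRU, remaining MRU and CD200+ non-MRU than in the CD200R1+ non-MRU. Its log2 fold changes were -1.65, -1.63 and -1.97. Eif4ebp2 of the same family, averaging 3.81 CPM, was higher in CD200+CD200R1+ MRU and in CD200+ non-MRU than there, by 1.14 and 0.99. The initiation factor gene Eif4e was lower in all 3 than there, at -0.92, -0.90 and -1.04. Of the 30 genes on the initiation factor list, 6 were higher and 5 lower in CD200+CD200R1+ MRU than in CD200R1+ non-MRU.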

How the data were processed

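Gene counts of 20 libraries from 4 sorted populations and 5 mice were analysed. The deposited raw counts are whole reads per gene, not normalized, per the file headers. The submitters' processing notes name the tools cutadapt, STAR 2.4.2a, HTSeq and DESeq2, and the build GRCm38. Annotation release, strand setting and the treatment of reads matching several genes are not given in the sources. The 20 columns that the authors normalized were not used.

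The main test was edgeR 4.0.16 in R 4.3.3, on the 17236 genes kept by filterByExpr and with TMM scaling. Population was the term of a quasi-likelihood model (glmQLFit, glmQLFTest) over all 20 libraries. P-values were Benjamini-Hochberg adjusted over all genes tested, and the threshold was 0.05. SE is the log2 fold change divided by the square root of its F statistic. Library totals of 10853587 to 13862963 counts limit low genes, and counting floors cover counting error only, since no molecular identifiers are mentioned.

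Libraries with a shared number came from the same animal, per the labels. Their residuals correlated with a mean of 0.0757 to 0.266 over the 6 comparisons, against -0.0666 to -0.0189 between different mice. Each gene was centred within its population, which by itself makes the second values negative when the first are positive. They are therefore no separate evidence. Replicate pairs differed by a chi-square of 12.02 to 83.17 per gene, so each library counted once.

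Members were named by a rule: in each comparison, up to 8 in each direction with the largest log2 fold change among called members averaging at least 10 CPM in either population, the paralogues beside their parents, and the 5 highest and 5 lowest. From each translation list, the 3 called genes with the largest changes could be named. Other named genes (Rplp0 as part of a complex, and examples of absent or unfiltered members) were picked after their values were seen. Some members that the rule names are not reported here. The members and lists were chosen with earlier results of these data known. Alternatives were other scalings, no filter, the mouse as a block, fits of 10 libraries, added pseudogene rows, DESeq2 1.42.0, limma 3.58.1 voom and leaving out each library. The main test was run on simulated counts in which few genes changed, between the MRU populations only, and libraries were independent. That check does not cover shared mice or the many changes against the non-MRU populations. Gene positions, exons and transcripts came from GENCODE M21, and promoters from RefSeq.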

Additional observations from a re-analysis of the deposited data

Results flagged for a closer look

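In groups of 5 libraries, 10 of 152 groups of members with named values had a library far from the other 4, by Dixon's critical value of 0.71 for the gap over the range; chance flags about 1 in 20 groups. In CD200+CD200R1+ MRU the library of mouse 6 was high for 5 further members beside Rplp0. It had 696 CPM of Rplp0 (others 527 to 576), 299 of Rps27l (192 to 214), 102 of Rpl7l1 (54.2 to 64.1), 66.6 of Rps25 (50.3 to 54.2), 46.5 of Rps10 (37.2 to 38.7) and 8.38 of Rpl36a (4.22 to 5.16). Its share of counts in ribosomal protein genes was also the highest, at 1.68%. Mouse 6 was high for Rplp0 in remaining MRU as well, at 572 CPM (others 515 to 529.5), and for Rpl36a in CD200+ non-MRU, at 8.32 CPM (2.86 to 3.77). Rpl27a stood at 41.1 CPM in CD200+ non-MRU of mouse 4 (31.3 to 33.8). Rpl9 was low in CD200+CD200R1+ MRU of mouse 3, at 19.1 CPM (24.0 to 25.3).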

How the results depend on the processing

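Counts of members higher or lower are given for the setting named, with the count as reported in brackets. Without the filter on low counts, 2 members were higher in CD200+CD200R1+ MRU than in remaining MRU (22), 3 lower against CD200+ non-MRU (5) and 1 lower against CD200R1+ non-MRU (2), while remaining MRU over CD200R1+ non-MRU had 1 lower (3) and CD200+ non-MRU over CD200R1+ non-MRU 9 higher (15). On library size alone, CD200+CD200R1+ MRU over CD200R1+ non-MRU had 63 higher and 1 lower (40 and 2), remaining MRU over CD200R1+ non-MRU 47 and 1 (12 and 3), and CD200+ non-MRU over CD200R1+ non-MRU 59 and 3 (15 and 9), where all TMM factors are set equal. There Rps27l and Rpl27a reversed, to log2 fold changes of 0.0216 and 0.0321. Fits of 10 libraries gave 3 lower (5) and 1 lower (2) for CD200+CD200R1+ MRU against CD200+ non-MRU and CD200R1+ non-MRU, 12 lower (6) and 7 higher (12) for remaining MRU against the same populations, and 4 lower (9) for CD200+ non-MRU over CD200R1+ non-MRU. The replicate block gave 6 lower (3) for remaining MRU over CD200R1+ non-MRU and moved no other count of members by over 1.5 times. Leaving out 1 library gave 11 to 25 higher within MRU (22), 3 to 5 lower (5) and 1 to 3 lower (2) for CD200+CD200R1+ MRU against CD200+ non-MRU and CD200R1+ non-MRU, and 7 to 16 higher (12) for remaining MRU over CD200R1+ non-MRU. As a median ratio of the members, the summed level was 1.20 in CD200+CD200R1+ MRU over remaining MRU (1.26), and 1.301 (1.79), 1.05 (1.42) and 1.12 (1.54) in CD200+CD200R1+ MRU, remaining MRU and CD200+ non-MRU over CD200R1+ non-MRU; as TMM-scaled CPM the last 3 were 1.33, 1.09 and 1.15. Apart from the scalings named, the cause of these shifts was not tested. TMM without the members, median-of-ratios factors, added pseudogene rows, DESeq2 and limma voom moved no count of members by over 1.5 times. Depth limits the 19 tested members under 10 CPM.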
